A study of Zeugodacus cucurbitae with 6 samples.

Results

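The 34 genes described here are genes of the melon fly *Zeugodacus cucurbitae* that carry a gene symbol and had higher counts in larvae that hatched from irradiated eggs. They were chosen by the counts themselves. In the rule, counts were divided by the library total and scaled to 1000000 (CPM). A gene was taken when its identifier was not only a number (no LOC prefix), when its mean over the 6 libraries was at least 1 CPM, when the lowest irradiated library lay above the highest non-irradiated library, and when the mean irradiated CPM was at least 1.5 times the mean non-irradiated CPM. Of the 12834 genes in the table, 1033 carry a symbol and 907 of these reached 1 CPM. The rule was met by 48 of the 907 (5.29%), and 14 of the 48 were then left out by name, as members of families set aside, such as cytochrome P450 genes, imaginal disc growth factors and transporters (17 symbol prefixes and 5 single identifiers), which leaves the 34. The groups are compared through the ratio of mean irradiated to mean non-irradiated CPM. Because the same contrast chose the genes, every ratio below describes them and none is tested.

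The irradiated larvae came from eggs of about 25 h that received 50 Gy of gamma radiation from cobalt-60 at 1.0 Gy per minute. The non-irradiated larvae came from eggs of the same age that received 0 Gy. Each group had 3 replicates, each a pool of 20 whole larvae of the 3rd instar, the last larval stage before the pupa, reared on the same artificial diet. A ratio of whole-larva RNA cannot tell more cells of a tissue from more RNA per cell.

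Whole-library values bear on all that follows. Totals per library lay between 13192748 and 16344295 counts for non-irradiated and between 17191722 and 18311658 for irradiated larvae, so that 1 count equals 0.0546 to 0.0758 CPM. Irradiated replicates 1 and 2 were nearly alike, with a Spearman correlation of 0.996 over the tested genes, whereas the other 14 pairs of libraries had values between 0.930 and 0.978. With these replicates summed into 1 library, 33 of the 34 genes still met the rule. Its condition of no overlap could not fail there, because the level in a summed library lies between those of its parts. In the mirrored rule, 63 of the 907 genes (6.95%) were lower in the irradiated group. Without regard to the ratio, 136 of the 907 (15%) had all irradiated libraries above all non-irradiated libraries. Over all genes with at least 1 CPM, symbol or not, 585 of 9363 (6.25%) met the rule for a higher level.

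The symbols of this fly were largely carried over from better known species, so the roles given here are background from those species. In an insect larva, chitin of the cuticle and gut lining is cut and replaced. The fat body exports lipoproteins that other tissues take up through receptors of the low-density lipoprotein receptor family. Blood proteins of the thioester family, related to vertebrate complement and alpha-2-macroglobulin, bind proteases or microbial surfaces. The 34 genes fall among these processes and several others, and were grouped by role after they were known.

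The median ratio of the 34 genes was 2.00, against 0.970 over the 907 symbol-named genes, a gap that the rule itself opens. In 17 genes the ratio was at least 2, in 6 at least 3 and in 4 at least 5. The 4 were Spbc4f6.14_1, Cd109_2, Rem1_0 and Cd109_1, and the highest ratio was 36.4. The gap between the groups was mostly narrow: the lowest irradiated library stood at a median of 1.40 times the highest non-irradiated library. It was at least 2 times that library in 3 genes and under 1.1 times in 3 others. The plot of CPM by gene and library shows this crowding near the threshold.

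**Figure D1:**
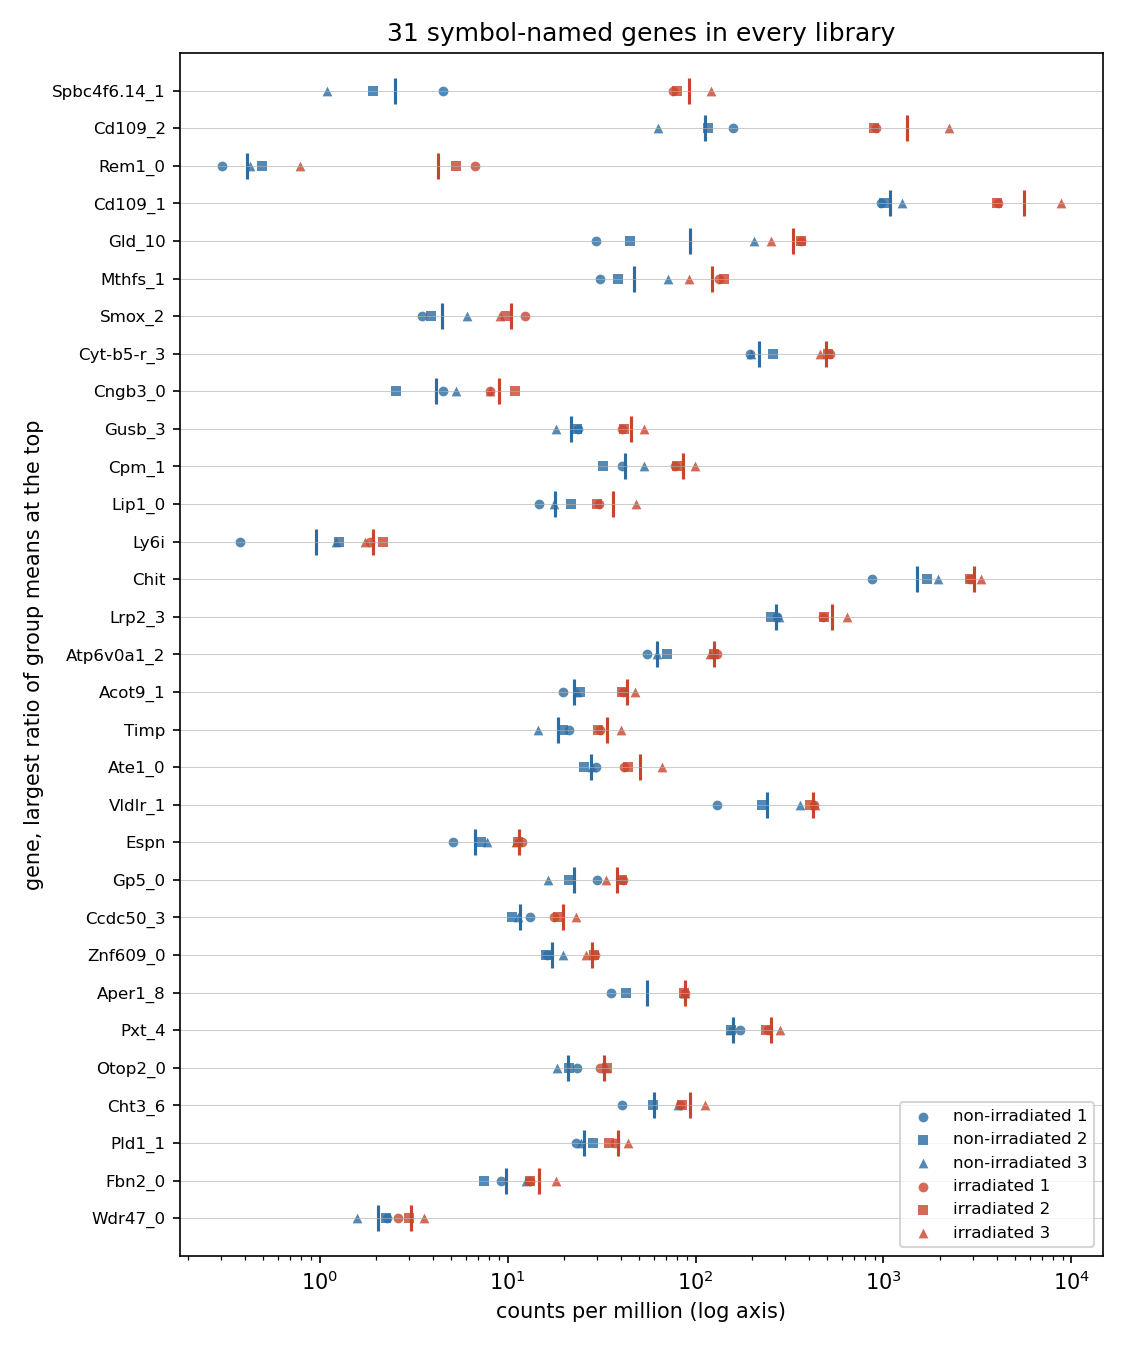
CPM (log axis) of 31 of the 34 genes in each of the 6 libraries, with blue marks for the non-irradiated and red marks for the irradiated replicates and a vertical tick at each group mean. Spbc4f6.14_1 at the top has the widest gap, while for Aper1_8 the mark of non-irradiated replicate 3 (86.8 CPM) lies under those of the irradiated libraries (87.1 to 88.2 CPM).

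Genes of protease control and matrix had the largest summed mean level of the role groups in irradiated larvae (7004 CPM), whereas in non-irradiated larvae (1223 CPM) they stood below the genes of chitin and cuticle (1715 CPM). Cd109 in mammals is a surface protein of the alpha-2-macroglobulin family, to which the thioester proteins of insects also belong. Cd109_1 had 973, 1012 and 1260 CPM in the non-irradiated libraries and 4089, 4009 and 8753 CPM in the irradiated libraries. All irradiated libraries were far above the others, and replicate 3 stood apart at 2.16 times the mean of irradiated replicates 1 and 2. The group means were 1082 ± 156 and 5617 ± 2717 CPM (SD, n = 3 libraries each), a ratio of 5.19. Cd109_2 had 158, 116 and 63.4 CPM against 911, 886 and 2218 CPM. Its ratio of 11.9 rests on means of 113 ± 47.5 and 1339 ± 762 CPM (SD, n = 3), and replicate 3 again reached 2.47 times the mean of irradiated replicates 1 and 2. Per length, Cd109_1 was among the most abundant of the 34, with a mean of 1404 FPKM (fragments per kilobase of gene per 1000000 counts) in irradiated larvae, below Chit at 1762 FPKM. The counting does not show how reads common to related genes were assigned, so the split between Cd109_1 and Cd109_2 is uncertain. The other genes of this kind had small ratios. Timp, which in *Drosophila* encodes an inhibitor of matrix metalloproteinases, stood at 18.5 ± 3.57 and 33.9 ± 5.602 CPM (SD, n = 3 libraries each), a ratio of 1.83. Fbn2_0, named after a mammalian fibrillin of elastic microfibrils, had a ratio of 1.51, and its lowest irradiated library was only 1.04 times the highest non-irradiated library.

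The position of the Cd109 genes gave a comparison outside the rule. In the gene order of assembly idZeuCucr1.2, in which all 34 genes were found, Cd109_1 and Cd109_2 are adjacent protein-coding genes, and they are the only pair of direct neighbours among the 34. On the other side of Cd109_2 lies LOC105214199, which has no symbol in the files and was therefore not open to the rule. It had 1300, 1373 and 1690 CPM in the non-irradiated libraries and 5223, 5162 and 9532 CPM in the irradiated libraries. No non-irradiated value came near an irradiated one, and replicate 3 was again the highest. edgeR's quasi-likelihood test, fitted over all 9768 genes that passed the filter on low counts, gave a log2 fold change of 2.20 (standard error 0.29, Benjamini-Hochberg adjusted p = 0.0195). The call was lost with irradiated replicates 1 and 2 summed into 1 library (adjusted p = 0.0578 in edgeR), without irradiated replicate 1 (adjusted p = 0.0559) and without irradiated replicate 2 (adjusted p = 0.0571). LOC105214205, the neighbour of Cd109_1 on its other side, had a log2 fold change of 0.06 (adjusted p = 0.855 in the same edgeR test). No sequences were compared, so reads shared among these adjacent genes were not examined.

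Direct neighbours of the other genes were taken in the same way. Of 66 neighbouring protein-coding genes outside the 34, 48 were tested, and 2 were called higher and 0 lower at an adjusted p under 0.05 in edgeR, where 2.14% of all tested genes were called higher and 1.6% lower. At an unadjusted p under 0.05, 4 of the 48 were higher and 4 lower in edgeR, and DESeq2 called 3 and 3 at its adjusted p under 0.05. Over all genes, 2050 of 9768 had an unadjusted p under 0.05 in edgeR, in either direction. DESeq2 called 563 higher and 487 lower of 12797 genes. The other edgeR call among the neighbours was LOC105214017, beside the chitinase gene Cht3_6. It had 74.7, 53.5 and 68.6 CPM against 135, 133 and 225 CPM. All its irradiated libraries were above 133 CPM and replicate 3 was the highest. In edgeR it differed by 1.35 on the log2 scale, with a standard error of 0.23 and an adjusted p of 0.0302. That call was lost with irradiated replicates 1 and 2 summed (adjusted p = 0.0865) and without any library other than irradiated replicate 3. Both unnamed neighbours were singled out after their values were seen. The median log2 fold change of the 48 neighbours was 0.05, against -0.01 over all tested genes.

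**Figure D2:**
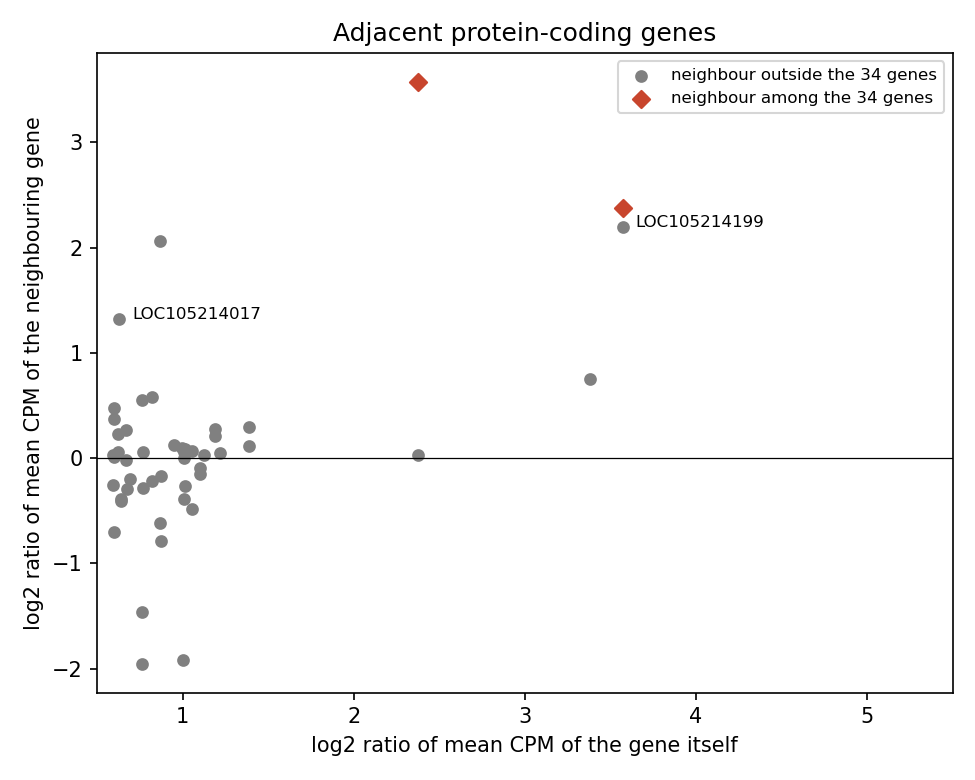
Log2 ratio of mean CPM (irradiated over non-irradiated) of each tested direct neighbour, against that of the gene beside it among the 34. Neighbours scatter around 0 on the vertical axis, while the marks of Cd109_1, Cd109_2 and LOC105214199 stand above 2, as does 1 neighbour of Ate1_0 that edgeR did not call.

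The gene with the largest ratio has a symbol that is the name of a fission yeast locus, which gives no role in flies. Non-irradiated libraries held 60, 27 and 18 counts of Spbc4f6.14_1, and irradiated libraries 1297, 1454 and 2135. In CPM these are 4.55, 1.91 and 1.101 against 75.4, 79.4 and 121. The lowest irradiated library was 16.6 times the highest non-irradiated library, the widest gap of the 34. Among the 907 symbol-named genes, 4.85% had a lower non-irradiated mean, so it was a scarce transcript in non-irradiated larvae. The ratio was 36.4, and 60.9 without non-irradiated replicate 1, whose level was the highest of its group.

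Genes of chitin and cuticle were 4 in number, with ratios from 1.55 to 3.51. Chit carries the symbol of a chitinase, an enzyme that cuts the chitin polymer. It had 866, 1695 and 1960 CPM in the non-irradiated and 2903, 2890 and 3290 CPM in the irradiated libraries. The irradiated libraries lay close together, whereas non-irradiated replicate 1 was well below the other non-irradiated libraries. The means were 1507 ± 571 and 3028 ± 227 CPM (SD, n = 3 libraries each), a ratio of 2.01. Gld in *Drosophila* is glucose dehydrogenase, an enzyme of cuticle hardening. Gld_10 had 29.4, 44.99 and 206 CPM against 365, 366 and 253 CPM. Non-irradiated replicate 3 approached irradiated replicate 3, the lowest of its group, so the ratio of 3.51 depends on that library and was 8.82 without it. Cht3_6, a further chitinase symbol, had a ratio of 1.55 and a lowest irradiated library only 1.03 times the highest non-irradiated library. Aper1_8 is named after a peritrophin of mosquitoes, a chitin-binding protein of the gut lining. It had 35.5, 42.9 and 86.8 CPM against 88.2, 87.1 and 88.0 CPM, values singled out because non-irradiated replicate 3 was level with the irradiated libraries. Its ratio of 1.59 thus comes from non-irradiated replicates 1 and 2.

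Genes of lipid metabolism and lipoprotein uptake formed the largest group, with 7 genes and ratios from 1.52 to 2.28. Cyt-b5-r in *Drosophila* encodes a protein that joins a cytochrome b5 domain to a fatty acid desaturase-like domain. Cyt-b5-r_3 had 196, 258 and 198 CPM in the non-irradiated and 522, 506 and 457 CPM in the irradiated libraries. The groups were well separated, with means of 217 ± 35.4 and 495 ± 33.9 CPM (SD, n = 3 libraries each) and a ratio of 2.28.

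The receptors of this group are named after mammalian endocytic receptors of the low-density lipoprotein receptor family. Lrp2_3 (megalin) had 270, 251 and 278 CPM in the non-irradiated and 478, 481 and 640 CPM in the irradiated libraries. The non-irradiated libraries were close to each other, and the means of 266 ± 14.0 and 533 ± 92.3 CPM (SD, n = 3) gave a ratio of 2.00. Vldlr_1 had 130, 226 and 361 CPM against 429, 407 and 432 CPM. Here the irradiated libraries were close together and the non-irradiated ones spread, so that the means were 239 ± 116 and 423 ± 13.5 CPM (SD, n = 3) with a ratio of 1.77. The lipase gene Lip1_0 and the gene Acot9_1, which in mammals encodes a mitochondrial acyl-CoA thioesterase, had ratios of 2.02 and 1.93. Pld1_1, a phospholipase D symbol, had a ratio of 1.52. In 6 of these 7 genes irradiated replicate 3 was the highest library.

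Other genes of lipid and sterol metabolism were taken from a list of symbols. Of these, 19 genes were in the table and 17 were tested, 1 of them Lip1_0. Among the other 16, edgeR called 0 higher and 2 lower at an adjusted p under 0.05. At an unadjusted p under 0.05 the numbers were 1 and 5, and DESeq2 called 1 higher and 4 lower. The median log2 fold change of the 17 was -0.31. Among all genes, 2050 of 9768 had an unadjusted p under 0.05 in edgeR, and DESeq2 called 563 higher and 487 lower of 12797. Lip3_2, a lipase symbol, fell from 16.8, 4.68 and 3.73 CPM to 0.931, 0.491 and 0.565 CPM. The change in edgeR was -3.58 on the log2 scale, with a standard error of 0.65 and an adjusted p of 0.0381, a call lost with irradiated replicates 1 and 2 summed (adjusted p = 0.125), without any irradiated library and without non-irradiated replicate 2. Without non-irradiated replicate 1, the highest library, the log2 change was -2.70. Scd1_0, named after the mammalian stearoyl-CoA desaturase that places a double bond in saturated fatty acids, fell from 20.01, 14.7 and 15.9 CPM to 10.9, 9.56 and 10.4 CPM. edgeR gave a log2 change of -0.69 with a standard error of 0.12 and an adjusted p of 0.0352, and the call was lost with irradiated replicates 1 and 2 summed (adjusted p = 0.124), with scaling by column sums only and without any single library.

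Other enzymes were 5 genes with ratios from 1.59 to 2.61. Mthfs encodes methenyltetrahydrofolate synthetase, which returns a storage form of folate to the one-carbon pool. Mthfs_1 had 30.9, 38.5 and 71.0 CPM in the non-irradiated and 133, 142 and 92.4 CPM in the irradiated libraries. As with Gld_10, non-irradiated replicate 3 was the highest of its group and irradiated replicate 3 the lowest of its own. The ratio was 2.61. Gusb is beta-glucuronidase, a lysosomal enzyme that removes glucuronic acid from matrix sugars. Gusb_3 had 23.8, 23.5 and 18.05 CPM against 40.5, 41.8 and 53.2 CPM, a ratio of 2.08 with no library near the other group. Pxt_4, a symbol of peroxidases that include the chorion peroxidase of *Drosophila* eggs, had 172, 154 and 152 CPM against 243, 236 and 280 CPM. Both groups of Pxt_4 were tight, at 159 ± 10.9 and 253 ± 23.8 CPM (SD, n = 3 libraries each), and the ratio was 1.59. Cpm_1, named after the membrane carboxypeptidase M, and Ate1_0, the symbol of the arginyltransferase that marks proteins for degradation, had ratios of 2.03 and 1.82.

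Membrane transport genes were 3, with ratios from 1.56 to 2.18. Cngb3 in mammals is a subunit of the cyclic nucleotide-gated channel of cone photoreceptors. Cngb3_0 had 4.55, 2.55 and 5.32 CPM in the non-irradiated and 8.09, 10.9 and 8.02 CPM in the irradiated libraries, a ratio of 2.18. Atp6v0a1 encodes a membrane subunit of the proton pump that acidifies lysosomes and other compartments. Atp6v0a1_2 had 55.0, 70.2 and 62.8 CPM against 129, 126 and 120 CPM. The irradiated libraries differed little from each other, and the ratio was 1.99. Otop2_0, an otopetrin proton channel symbol, had a ratio of 1.56. In none of the 3 genes was irradiated replicate 3 the highest library.

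Genes named after cell surface proteins were 3 in number. Ly6i, from a mouse family of small lipid-anchored surface proteins, had 0.379, 1.28 and 1.22 CPM in the non-irradiated and 1.86, 2.18 and 1.75 CPM in the irradiated libraries, a ratio of 2.01 that rests on 5 to 40 counts per library. Non-irradiated replicate 1 was well below the others. Gp5_0, named after a leucine-rich repeat glycoprotein of platelets, had a ratio of 1.70.

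Genes of signalling, cytoskeleton and nucleus were 5 and all had low levels per length, between 0.734 and 2.91 FPKM in irradiated larvae. Rem1 is a small GTP-binding protein of the Rad and Gem family in mammals. Rem1_0 was counted 4, 7 and 7 times in non-irradiated and 115, 97 and 14 times in irradiated larvae, or 0.303, 0.496 and 0.428 CPM against 6.69, 5.30 and 0.791 CPM. Irradiated replicates 1 and 2 carried the ratio of 10.4, and irradiated replicate 3 was much nearer to the non-irradiated libraries. Espn encodes espin, a bundler of actin filaments. It had 5.15, 7.23 and 7.77 CPM against 11.9, 11.4 and 11.1 CPM, a ratio of 1.70 with the irradiated libraries close together. Znf609_0 (a zinc finger protein of transcription) and Wdr47_0 (a protein with WD repeats) had ratios of 1.62 and 1.51.

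No role was assigned to a further pair of genes. Smox denotes spermine oxidase in mammals but a Smad transcription factor in *Drosophila*, and the files do not say which was meant. Smox_2 had 3.49, 3.90 and 6.06 CPM in the non-irradiated and 12.3, 9.83 and 9.15 CPM in the irradiated libraries, a ratio of 2.33. Ccdc50_3, a coiled-coil protein, had a ratio of 1.70.

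The threshold passed through a continuous range of ratios. Just inside it were Wdr47_0 at 1.51, Fbn2_0 at 1.51, Pld1_1 at 1.52 and Cht3_6 at 1.55. Just outside were Tgfbi_5 at 1.49, Smoc2_1 at 1.48, Plxdc2_0 at 1.48, Alp-m_6 at 1.45 and Aifm3_0 at 1.44, all without overlap of the groups. A further 9 genes with a ratio of at least 1.5 were kept out because their groups overlapped. These included Aper1_10, which shares its symbol with Aper1_8.

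Irradiated replicate 3 was the highest irradiated library in 20 of the 34 genes, the lowest in 12 and between the others in 2. Over the 907 symbol-named genes it was the highest in 390 and the lowest in 381. It exceeded the mean of irradiated replicates 1 and 2 by more than 1.2 times in 16 of the 34 and fell short of it by the same factor in 6, against 151 and 181 of the 907. The median size of its log2 distance from that mean was 0.35 in the 34 genes and 0.19 in the 907, while the log2 distance between irradiated replicates 1 and 2 had medians of 0.04 and 0.08. By role, all 4 genes of protease control and matrix and 6 of the 7 lipid genes had their highest level in irradiated replicate 3, against 0 of the 3 transport and 0 of the 3 surface genes. These small counts are given without a test. The rule used the level of irradiated replicate 3, so the differences from the 907 genes are in part fixed by it. The scatter plot of irradiated replicate 3 against replicates 1 and 2 shows Cd109_1, Cd109_2 and Spbc4f6.14_1 above the line of equal level and Rem1_0 far below it.

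**Figure D3:**
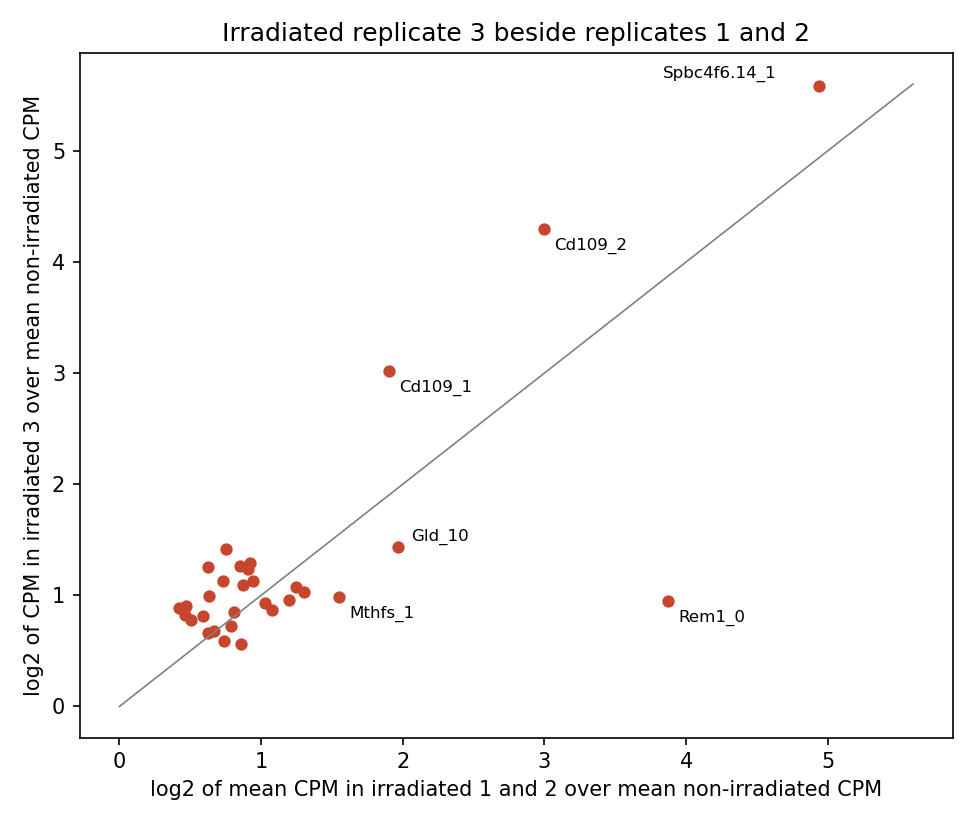
Log2 level relative to the mean non-irradiated CPM, with the mean of irradiated replicates 1 and 2 on the horizontal and irradiated replicate 3 on the vertical axis, for 31 of the 34 genes (points). The grey line marks equal levels, and Rem1_0, at 0.791 CPM in replicate 3 against 6.69 and 5.30 CPM in replicates 1 and 2, lies farthest below it.

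Among the non-irradiated libraries, replicate 1 was the lowest in 19 of the 34 genes and replicate 3 the highest in 17. Over the 907 genes replicate 1 was the lowest in 208 and replicate 3 the highest in 266. Replicate 1 was the highest in 10 of the 34 genes and in 456 of the 907. The rule used these libraries, so such differences from the 907 genes are in part fixed by it. The highest non-irradiated library was at least 2 times the lowest in 10 of the 34 genes, with a median of 1.56 times against 1.41 times over the 907. Whether the low levels in non-irradiated replicate 1 play a part in the ratios of these genes was not tested. Without that library the rule kept 28 of the 34, for which its condition of no overlap could not fail.

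The summed CPM of the 34 genes was 3255, 4257 and 5079 in the non-irradiated and 10953, 10809 and 17462 in the irradiated libraries. Most of this sum came from Cd109_1, Cd109_2 and Chit. Without them the sums were 1258, 1433 and 1796 against 3050, 3024 and 3200. The median gene length, which the rule did not use, was 2308 bp against 2421 bp in the 907 genes.

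Other genes with the same symbol and another number were compared next, since several symbols occur more than once. For 13 of the symbols the table holds 30 further genes, of which 25 were tested. None could meet the rule, or it would have been counted among the 34, so their lower ratios are in part fixed by it. edgeR called 0 of the 25 higher and 0 lower at an adjusted p under 0.05, with 0 higher and 5 lower at an unadjusted p under 0.05, and DESeq2 called 0 higher and 3 lower. Their median log2 fold change was -0.05. For comparison, 2050 of all 9768 tested genes had an unadjusted p under 0.05 in edgeR, in either direction. DESeq2 called 563 higher and 487 lower of 12797 genes. Of the Gld genes, Gld_2 had 67.8, 36.4 and 29.8 CPM against 45.02, 42.4 and 59.8 CPM (edgeR log2 difference 0.18, adjusted p of 0.773), and its groups overlapped. Cyt-b5-r_2, the direct neighbour of Cyt-b5-r_3, had 566, 458 and 537 CPM against 531, 529 and 832 CPM, also with overlap (edgeR log2 difference 0.30, adjusted p of 0.461). Lrp2_4 had 84.6, 88.1 and 92.2 CPM against 60.9, 59.1 and 69.3 CPM, and Smox_0 had 7.43, 3.83 and 5.32 CPM against 2.56, 3.50 and 2.54 CPM. Both were lower in every irradiated library, by -0.47 and -0.91 on the log2 scale, and edgeR's adjusted p was 0.0982 and 0.109. Lip1_2 and Otop2_1 were also lower in every irradiated library, by -1.11 and -0.60 on the log2 scale. Their adjusted p in edgeR was 0.0767, the lowest of these further genes, and 0.209. Lrp2_4, Smox_0, Lip1_2 and Otop2_1 were singled out for their values. Atp6v0a1_5, the most abundant of its symbol, differed by -0.05 on the log2 scale (adjusted p of 0.882 in edgeR). How the counting divided reads between genes of 1 symbol is not known.

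**Figure D4:**
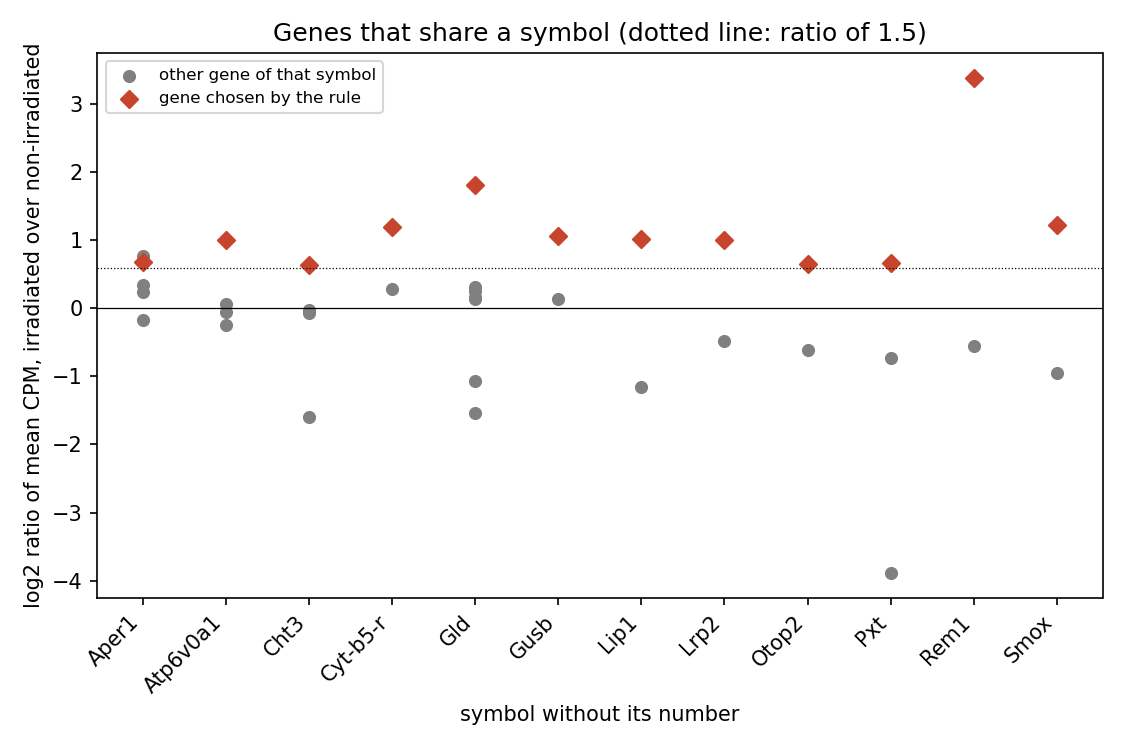
Log2 ratio of mean CPM, irradiated over non-irradiated, for the genes chosen by the rule (red diamonds) and for other genes of the same symbol with a mean of at least 1 CPM (grey points), by symbol. The dotted line is the ratio of 1.5, above which 1 grey point (Aper1_10) lies.

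Beside these ratios, the lists of other pathways held few genes with a symbol. Of 26 tested genes of apoptosis and autophagy (5), JNK and JAK-STAT signalling (4), oxidative stress and glutathione (7) and carbohydrate metabolism (10), edgeR called 0 at an adjusted p under 0.05, with 2 higher and 3 lower at an unadjusted p under 0.05 and 0 higher and 1 lower in DESeq2. Their median log2 fold changes were -0.02, 0.20, -0.02 and -0.27 in that order. Over all genes, edgeR gave 2050 of 9768 an unadjusted p under 0.05, and DESeq2 called 563 higher and 487 lower of 12797. Marker genes of tissues were found for muscle (5 genes), midgut digestion (4), nervous system (3) and fat body (1), and for haemocytes, trachea, salivary gland and gonad none was found under the listed symbols. The summed level of the muscle markers was 3164 to 4034 FPKM in the non-irradiated and 2454 to 3434 FPKM in the irradiated libraries, and that of the midgut markers 174 to 226 and 167 to 185 FPKM. All 4 midgut markers carry the symbol Ance. Their edgeR log2 differences went both ways, at -0.51 (Ance_0), -0.69 (Ance_5), 0.16 (Ance_2) and 0.19 (Ance_4). The fat body marker Rfabg_1, a lipoprotein precursor, lay at 769 to 864 and 942 to 985 FPKM, without overlap. Such a gap upward was seen in 136 of the 907 symbol-named genes (15%). The edgeR log2 difference of Rfabg_1 was 0.28 (adjusted p of 0.370). The summed nervous system markers lay at 27.5 to 32.2 and 33.3 to 35.7 FPKM, nearly all of it from Rop_1, whose edgeR log2 difference was 0.23, whereas Sh_1 (-0.34) and Syt1_0 (-0.31) had the opposite sign. edgeR called 0 of the 12 tested markers, with 0 higher and 1 lower at an unadjusted p under 0.05 and 1 lower in DESeq2. The part of tissue composition in the ratios of the 34 genes was not tested.

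In the edgeR fit over all genes, 15 of the 34 had an adjusted p under 0.05, where 2.14% of all tested genes were called higher. The rule used the same contrast, so nothing is read from this count. With irradiated replicates 1 and 2 summed into 1 library, 1 of the 34 had an adjusted p under 0.05 in edgeR, where 0.202% of the genes tested in that fit were called higher.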

How the data were processed

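RNA was sequenced from 6 pools of whole larvae after poly-A selection, in 150 bp pairs. Raw counts per gene were deposited by the authors, who used HISAT2 for alignment and HTSeq (0.6.1p2 in the submitters' processing notes) for counting, and served here for all ratios and tests. FPKM values deposited beside them follow from the count and the gene length. These were used for levels per length, and the length they imply agreed between libraries. Whether counting used strand is not given in the sources used here.

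Ratios are of mean CPM with library totals as denominators. For genes outside the 34, and for the share of calls over all genes, groups were compared with edgeR 4.0.16 in R 4.3.3 (TMM, filterByExpr, robust glmQLFit, glmQLFTest, Benjamini-Hochberg adjustment, 9768 genes). DESeq2 1.42.0 was the main alternative. Scripts were tested on simulated counts. P-values measure the spread between pools, and counts of 1 to 3 are at the floor of detection.

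The members, the role groups and the gene lists were chosen with earlier results of these data known. CPM of every library is given for the 12 largest ratios, the 8 largest differences in mean CPM and the 2 largest ratios of each role group. Of the 34 genes, 3 are counted in all totals but not reported here by name or plotted by level. Genes outside these that were singled out for their values are named as such. Neighbours come from the gene order of RefSeq assembly idZeuCucr1.2, which lists 11831 of the 12834 genes. As the files rest on a different build, no coordinates are printed.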

Additional observations from a re-analysis of the deposited data

How the results depend on the processing

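The number of genes that met the rule was 34, and 17 with a ratio of at least 2 and 56 with a ratio of at least 1.3. TMM scaling, DESeq2 size factors, other minimum levels, medians in the ratio and the sum of irradiated replicates 1 and 2 gave between 30 and 40 genes. Leaving out 1 library in turn gave between 36 and 46, with 28 to 33 of the 34 among them. The log2 ratio of all 34 genes kept its sign in all 306 recomputed values. Where libraries were left out or summed, the condition of no overlap could not fail for these genes. The sign was thus fixed in advance there. The ratio moved by over 1.5 times in 3 genes, among them Spbc4f6.14_1 and Gld_10 as given above. A ratio of at least 1.5 was kept throughout by 25 of the 34. The exceptions included Aper1_8, Cht3_6, Fbn2_0, Gp5_0, Otop2_0, Pld1_1, Vldlr_1 and Wdr47_0, with a lowest ratio of 1.33.

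Over all genes, edgeR called 209 higher and 156 lower at an adjusted p under 0.05. With irradiated replicates 1 and 2 summed it called 20 and 5, and DESeq2 called 563 and 487. Leaving out 1 library in turn gave 18 to 162 higher and 3 to 154 lower. The number moved by over 1.5 times without irradiated replicate 1 (18 and 3), 2 (22 and 5) or 3 (95 and 43), for higher calls without non-irradiated replicate 2 (120) and for lower calls without non-irradiated replicate 3 (90). The labels give both groups the replicate numbers 1 to 3. Deviations of same-numbered libraries from their group means had correlations of -0.01, -0.10 and -0.15. As irradiated replicates 1 and 2 were nearly alike, these values cannot decide whether same-numbered libraries belong together. With the replicate block, edgeR called 54 higher and 35 lower, and the calls of LOC105214017 (adjusted p of 0.0616) and Scd1_0 (adjusted p of 0.0925) were lost.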
